A study of Homo sapiens with 124 samples.

Results

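Chromosome 12 is described here by its contacts with the nuclear lamina in single haploid human cells. Its members were all 100 kb bins of chromosome 12 in the deposited table with numbers for all cells, of which 1 or more had to exceed 0. These were 1310 of the 26426 usable bins of the genome, or 131 of 2642.6 Mb (genome build hg19). The longest stretches without numbers, 2 of 14 bins each with a single bin at 0 in every cell between them, split the chromosome into a short arm of 349 bins (chr12:1-34900000) and a long arm of 961 bins (chr12:37800001-133900000). The gap of 2.9 Mb between the arms was not analysed here.

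The cells were KBM7, a near-haploid human leukaemia line, from clone 14, labelled haploid and 1N, so that a cell is taken to hold 1 copy of chromosome 12. All cells belonged to 1 group and were derived from 1 clone carrying Dam fused to LaminB1. Dam activity was induced with 0.5 nM Shield1 for 15 h in all of them, and the smallest 2% of cells that were positive for both Fucci markers were sorted singly. Of 124 labelled samples, 118 were analysed here, and a profile of unfused Dam was not used here. The labels name no separate cultures, so the cells count as 1 sample of 1 group, no test was made, and each SD describes the spread between cells.

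The nuclear lamina is a protein mesh under the inner nuclear membrane, and LaminB1 is one of its main proteins. Dam methylates adenine in GATC, and a Dam-LaminB1 fusion leaves that mark on DNA that touches the lamina while the fusion is present. Regions that contact the lamina are typically poor in genes and low in transcription, whereas regions away from it tend to be rich in active genes. Chromosome 12 carries the natural killer receptor gene complex on its short arm and the type II keratin and HOXC gene clusters on its long arm. No gene was placed on a bin, because the annotation at hand is of another genome build.

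Each value was the ratio of observed to expected reads of a bin in a cell, and a bin was called in contact where this ratio was 1 or more. For a cell, the contact share is the percentage of its bins called in contact. For a bin, the contact frequency is the percentage, out of 118, of cells that contacted it. The reads recovered from the ratios ranged from 28372 in cell 43 to 385661 in cell 100, with a median of 135782 per cell. On chromosome 12 they ranged from 627 to 23123, with a median of 6396. A ratio of 1 in a median bin of chromosome 12 stood for 1.17 reads where depth was lowest, 15.8 reads where it was highest, and 5.61 reads at the median over cells. On average 48.2% ± 17.2 of the chromosome 12 bins of a cell held no read (SD, n = 118). A bin in contact in 0 of 118 cells allows a frequency of up to 2.54% (3 counts), or 3.08% by the exact 95% binomial bound. Intervals and this limit cover counting error only. No 2 of the 118 cells had identical values in the 6903 pairs compared. Cells numbered 96 to 124 (28 cells) had more reads than cells numbered 1 to 94 (90 cells), at means of 170307 and 127703, and fewer chromosome 12 bins without reads, at means of 27.6% and 54.6%. This division was noticed in the data, and values within both sets are given beside the main results.

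Chromosome 12 touched the lamina over slightly less of its length than the rest of the genome, and less than chromosome 11, which is of similar size. The contact share of chromosome 12 was lowest in cell 66 (8.17%), had a median of 30.6% and was highest in cell 101 (50.0%). It averaged 30.2% ± 8.85, against 33.1% ± 5.44 for the rest of the genome (SD, n = 118 each). The difference was -2.89 ± 6.69 percentage points, smaller than its spread between cells, and chromosome 12 was below the rest in 79 of 118 cells. It was -1.24 points for cells 96 to 124 and -3.41 points for cells 1 to 94. Against chromosome 11 (37.7% ± 8.90) the difference was -7.48 ± 7.80 points, with chromosome 12 below in 103 cells. Against chromosome 10 (29.5% ± 8.65) the difference was 0.759 ± 8.52 points, with chromosome 12 above in 60 cells and below in 58, and its sign differed between the sets (-0.0567 points for cells 96 to 124 and 1.01 points for cells 1 to 94). The widest gap between chromosome 12 and the rest of the genome was in cell 71, at -27.3 points, and the highest was in cell 7, at 15.1 points.

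The chromosome 12 share varied with the share of the rest of the genome over cells (Pearson's r = 0.655, Spearman's rho = 0.586, n = 118) and with the reads of the cell (r = 0.613, rho = 0.577). Within cells 96 to 124 these correlations were r = 0.425 and r = 0.457, and within cells 1 to 94 they were r = 0.654 and r = 0.631. All of these cells share the clone and the expected part of the ratio. The part of read depth in the shares was not tested. Cells 96 to 124 had a chromosome 12 share of 35.3%, against 28.6% in cells 1 to 94.

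The contacts lay mostly on the long arm. The long arm share ranged from 7.28% in cell 66 through a median of 34.4% to 53.7% in cell 113, and the short arm share from 0% through a median of 22.3% to 47.6% in cell 101. The means were 33.4% ± 9.73 for the long arm and 21.4% ± 10.6 for the short arm (SD, n = 118). The long arm lay above the short arm in 104 of 118 cells, by 12.0 ± 10.4 points on average and by a median of 12.2 points. The ranges of the arms overlapped, but within a cell the long arm led in 26 of 28 cells numbered 96 to 124 and in 78 of 90 cells numbered 1 to 94. On chromosome 10 the long arm exceeded the short arm by 3.44 ± 9.30 points, in 79 cells. On chromosome 11 the difference was -2.95 ± 7.05 points, and the long arm led in 34 cells. Against the rest of the genome the long arm of chromosome 12 differed by 0.308 ± 7.36 points and was above it in 71 cells. That difference was 2.38 points for cells 96 to 124 and -0.338 points for cells 1 to 94, so its sign differed between the sets. The short arm differed from the rest of the genome by -11.7 ± 9.93 points and was below it in 107 cells, at -11.2 points for cells 96 to 124 and -11.9 points for cells 1 to 94. In the mean over all cells, the deficit of chromosome 12 against the rest of the genome was thus on the short arm. In cells 1 to 94 the long arm mean also lay slightly below the rest.

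**Figure D1:**
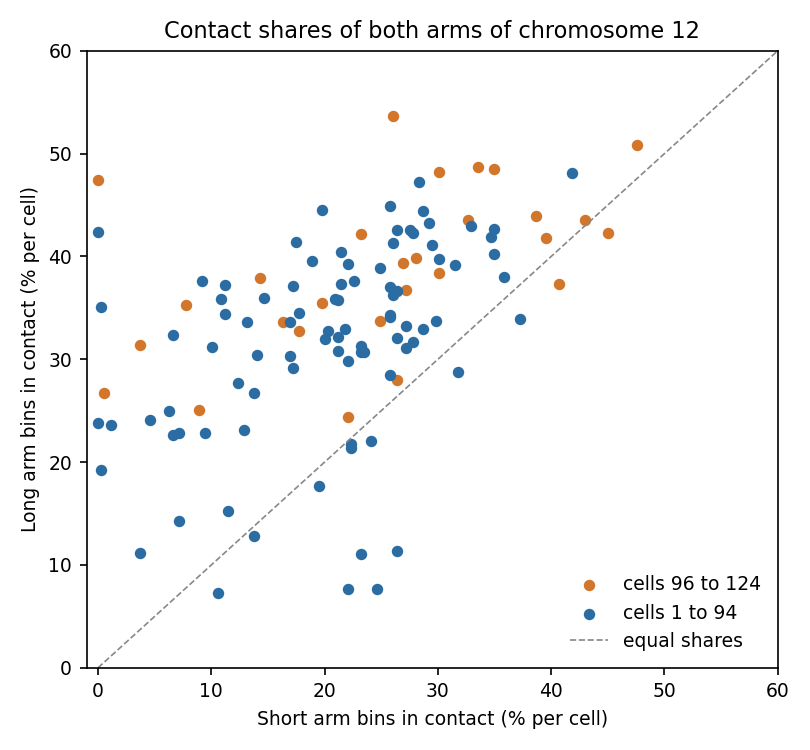
Each point is 1 cell, with the percentage of short arm bins in contact on the horizontal axis and the percentage of long arm bins in contact on the vertical axis; orange points are cells 96 to 124, blue points cells 1 to 94, and the dashed line marks equal shares. Of the 118 points, 104 lie above the line, 3 sit at 0% of the short arm, and 4 lie 10 points or more below the line.

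With the contact share outside chromosome 12 removed by regression, the shares of both arms over bins at 20 to under 80% of cells correlated weakly over cells (r = 0.339, rho = 0.370, n = 118). Without the 2 cells farthest from the median, r was 0.301, and over all bins of the arms it was 0.328. The 28 cells numbered 96 to 124 gave r = 0.456, and the 90 cells numbered 1 to 94 gave r = 0.315. The same measure gave r = 0.333 on chromosome 10 and r = 0.401 on chromosome 11. Without removing the share outside chromosome 12, the shares over all bins of the arms correlated at r = 0.478 and rho = 0.542. Part of the correlation between the arms thus went with the contact share of the cell elsewhere.

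Some cells lacked contact over a whole arm, and these were chosen for description after their values were seen. In cells 3, 77 and 119 no bin of the 34.9 Mb short arm was in contact, while their long arms were in contact over 23.8%, 42.4% and 47.5% of bins. These were not shallow cells: they held 143594, 148729 and 135954 reads, but only 37, 64 and 33 of those reads fell on the short arm. In the same 3 cells the long arm between 70 and 93 Mb was in contact over 75.7%, 77.4% and 75.2% of its bins. Neither arm of chromosome 10 was without contact in any cell, and on chromosome 11 the long arm was without contact in 1 cell and the short arm in 0. Under 2% of the bins were in contact in 7 cells on the short arm of chromosome 12 and in 0 cells on its long arm. On chromosome 10 this held in 1 cell for the short arm and 0 for the long arm. On chromosome 11 it held in 1 cell for each arm. The table holds reads from methylated DNA only, so it does not show how much DNA of an arm a cell held.

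The absence of contact did not stop at the gap between the arms. The longest span without contact in a cell had a median of 15.4 Mb of usable bins and ranged from 5 to 51.3 Mb. In cell 77 it ran from the short arm end into the long arm (chr12:1-54200000, 51.3 Mb of usable bins). It held 116 reads in that cell, against a median of 1798 reads in the other cells. In cell 71 it ran across the gap from within the short arm (chr12:25700001-79100000, 50.5 Mb of usable bins), with 286 reads against a median of 2683 in the other cells. In cell 3 it covered chr12:1-40800000, with 38 reads against a median of 1383, and in cell 119 chr12:1-38900000, with 33 reads against a median of 1256. The mean contact frequency of these spans in the other cells was 22.6% (cell 77), 33.7% (cell 71), 22.9% (cell 3) and 21.8% (cell 119), beside 30.2% for the chromosome as a whole. The longest span exceeded 20 Mb in 43 cells. Among these 43 cells it crossed the gap in 5 and lay within the short arm in 4. It began beyond 93 Mb on the long arm in 33. The longest of these 33, in cell 67, was chr12:100200001-133900000 (33.7 Mb, 17 reads against a median of 852). Its mean contact frequency in the other cells was 16.2%. Others of the 33 lay where contact was rare in the other cells too. In cell 28 (chr12:103600001-126100000) that frequency was 6.21%, with 12 reads against a median of 174. In cell 110 (chr12:103700001-125900000) it was 5.69%, with 235 reads against a median of 159.

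The opposite pattern was seen in 14 cells, in which the short arm share exceeded the long arm share. In 4 of these the lead was 10 points or more. Cells 14, 43, 58 and 71 had long arm shares of 11.0%, 7.70%, 11.3% and 7.70% beside short arm shares of 23.2%, 22.1%, 26.4% and 24.6%. Cells 43 and 58 were shallow, with 28372 and 38475 reads, whereas cells 14 and 71 held 142713 and 170082 reads. In cell 71 the window from 80 to 90 Mb was in contact over 55% of bins, while the windows from 40 to 70 Mb were at 0%, and the rest of the genome was at 39.5%.

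Along the chromosome, contact was concentrated in a block of the long arm between 70 and 93 Mb and was rare near both ends and on the proximal long arm between 46 and 58 Mb. The profile was not a gradient: high blocks and stretches with hardly any contact alternated. The mean share by windows of 10 Mb on the short arm was 2.18% ± 4.10 at 0 to 10 Mb, 18.9% ± 13.7 at 10 to 20 Mb, 38.3% ± 18.4 at 20 to 30 Mb and 31.2% ± 17.1 at 30 to 34.9 Mb (SD, n = 118 cells). Contact on the short arm thus lay on its side toward the gap. On the long arm the share was 35.5% ± 26.2 in the 2.2 Mb next to the gap, 31.9% ± 13.4 at 40 to 50 Mb, 15.0% ± 6.92 at 50 to 60 Mb and 34.4% ± 13.8 at 60 to 70 Mb. It was 63.8% ± 17.7 at 70 to 80 Mb, 69.4% ± 17.0 at 80 to 90 Mb and 43.2% ± 12.9 at 90 to 100 Mb. Beyond these it was 25.1% ± 14.9 at 100 to 110 Mb, 5.93% ± 9.00 at 110 to 120 Mb, 21.7% ± 13.4 at 120 to 130 Mb and 8.24% ± 7.37 in the last 3.9 Mb. The window at 120 to 130 Mb thus stood above both of its neighbours in the mean, with its contacts in its distal part.

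**Figure D2:**
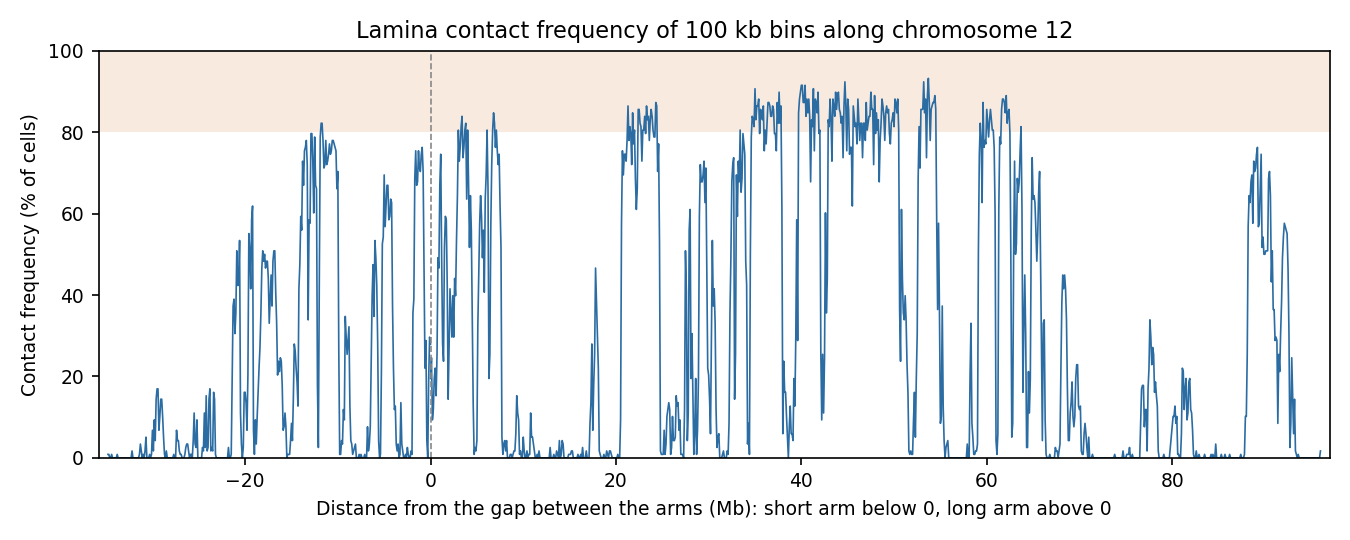
The horizontal axis gives the distance of each 100 kb bin from the gap between the arms in Mb, with the short arm below 0 and the long arm above 0, and the vertical axis gives the percentage of the 118 cells in which the bin was in contact; the shaded band marks 80% or more. The long arm enters the band in many blocks, with a highest bin at 93.2%, whereas the short arm reaches it in 2 bins at 82.2%.

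Read by frequency, chromosome 12 held slightly fewer bins with contact in most cells and slightly more with rare contact than the genome at large. Bins at 80% or more of cells numbered 175, or 13.4% of chromosome 12, where 15.1% of all usable bins were in this class. Bins at 20 to under 80% numbered 412, or 31.5%, beside 33.9% of all usable bins. Bins above 5% and under 20% numbered 182, or 13.9%, beside 12.3%. Bins at 5% or less numbered 541, or 41.3%, beside 38.8%. Of these rare bins 321, or 24.5% of chromosome 12, were in contact in none of the cells, beside 22.3% of all usable bins. All of these shares lay near those of the genome. Within the sets, bins at 80% or more made up 16.9% of chromosome 12 for cells 96 to 124 and 13.0% for cells 1 to 94, and bins at 5% or less made up 35.6% and 45.1%. The count of 175 depended on the ratio that counts as contact. It was 306 at a ratio of 0.5 or more and 0 at a ratio of 2 or more. With reads thinned to 50000 per cell the count was 131 (109 cells). Without cells under 3 reads at a ratio of 1 the count was 234 (104 cells). The 175 most frequent bins held 37.6% of the chromosome's contacts, and the 412 intermediate bins held 56.1%.

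The arms differed most in the most frequent class. The long arm had 173 bins at 80% or more (18.0% of the arm), and the short arm had 2 (0.573%). Bins at 20 to under 80% made up 29.8% of the long arm and held 48.8% of its contacts, against 36.1% of the short arm, where they held 87.5% of the contacts. Bins at 5% or less made up 38.5% of the long arm and 49.0% of the short arm. Bins in contact in no cell made up 24.1% of the long arm and 25.5% of the short arm. Contact on the short arm thus fell mostly on bins that were in contact in some cells and not in others. For comparison, bins at 80% or more made up 10.8% of chromosome 10 and 20.4% of chromosome 11.

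The block between 70 and 93 Mb, a zone delimited after its values were seen, held 123 of the 175 most frequent bins in 230 bins. Its share ranged from 7.39% in cell 66 through a median of 72.2% to 90.0%, with a mean of 66.4% ± 15.9, and no cell lacked contact there. Within it, the 6 Mb from 82 to 88 Mb averaged 82.0% ± 20.2, with all 60 bins in contact in 13 cells and at least some of them in each of the 118 cells. The least frequent bin of these 6 Mb was at 61.9%. The bin of highest frequency on the chromosome also lay in this block, at chr12:91500001-91600000, in contact in 110 of 118 cells (93.2%, exact 95% binomial interval 87.1 to 97.0%). Its ratio ranged from 0 through a median of 2.39 to 11.0, and 5 cells had no read in it.

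Another zone of frequent contact lay at 58 to 62 Mb, next to the rarely contacted 46 to 58 Mb. It averaged 70.6% ± 23.7, from 0% through a median of 80.0% to 92.5%, and 3 cells had no contact there. The 12 Mb before it averaged 3.09% ± 4.38, with a median of 1.67%, and 102 of its 120 bins were at 5% or less. Cell 119, which lacked short arm contact, had the highest share of all cells in these 12 Mb, at 34.2%, followed by cell 19 at 16.7%. Farther along the long arm, the zone from 96 to 104 Mb averaged 53.0% ± 21.9, and the zone from 126 to 130 Mb averaged 52.5% ± 31.9. The zone at 126 to 130 Mb was the most variable of those named, from no contact in 10 cells to contact in every bin in 2 cells, with a median of 58.8%. On the short arm, the zone from 20 to 26 Mb averaged 52.9% ± 24.1, from 0% through a median of 60.0% to 95.0%, and 6 cells had no contact there. The 20.9 Mb of the short arm from 14 Mb to the gap averaged 33.2% ± 15.8, and the 14 Mb before it averaged 3.86% ± 4.84.

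Most stretches of adjacent bins in the same class were short, and the longest ones were of rare contact. There were 51 stretches at 80% or more, 50 of them on the long arm and 1 on the short arm, with a median length of 0.3 Mb, and 2 reached 1 Mb. There were 62 stretches at 5% or less, 37 on the long arm and 25 on the short arm, with the same median length of 0.3 Mb, and 16 of them reached 1 Mb. The 59 stretches at 40 to under 60% had a median length of 0.1 Mb, and none reached 1 Mb. The longest stretch spanned 1.3 Mb in the frequent class and 6.1 Mb in the rare class.

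The 6 longest stretches at 80% or more all lay on the long arm, and 5 of them in the block from 70 to 93 Mb. The longest, chr12:77500001-78800000, had 87.7% ± 22.4 of its 13 bins in contact, from 0% to a median and a highest value of 100%, with all bins in contact in 65 cells and none in 3. The next, chr12:81200001-82300000, averaged 86.3% ± 21.5, with all bins in contact in 61 cells and none in 1. The others were chr12:87500001-88400000 at 84.5% ± 27.5, chr12:99400001-100300000 at 86.2% ± 27.5, chr12:72500001-73300000 at 85.4% ± 26.5 and chr12:74100001-74900000 at 85.4% ± 24.9. All 6 had a median of 100% and a lowest value of 0%, and between 1 and 5 cells had no contact in any of their bins. Even the most constant stretches thus had no bin called in contact in a few cells. Some of these cells were shallow, such as cell 58 at chr12:81200001-82300000 (38475 reads). Others were not, such as cell 71 at chr12:77500001-78800000 (170082 reads). The part of read depth in these absences was not tested. The only stretch of this class on the short arm, chr12:23000001-23200000, had both of its bins in contact in 91 cells and none in 15 (82.2% ± 34.9).

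The longest stretch at 5% or less was chr12:48900001-55000000, of 6.1 Mb, with 0.625% ± 2.68 of its bins in contact, a median of 0% and a highest value of 27.9% in cell 119. In 96 of 118 cells none of its bins was in contact. It was followed by chr12:120100001-125700000 at 0.242% ± 0.806 (none in 106 cells) and chr12:108900001-114400000 at 0.169% ± 0.713 (none in 110 cells). On the short arm the first 4.1 Mb formed such a stretch, at 0.331% ± 1.35 (none in 107 cells). The remaining ones were chr12:93200001-96000000 at 0.636% ± 2.02 and chr12:131100001-133900000 at 0.182% ± 0.788. The stretch from 93.2 to 96.0 Mb lay directly beyond the block of most frequent contact. Median reads per cell over these stretches were between 2 and 6.5, against between 97 and 203 over the 6 longest frequent ones.

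Between these extremes, the longest stretches at 40 to under 60% were in contact as a whole in some cells, free in others and in contact in part in the rest. The longest, chr12:16600001-17400000 on the short arm, averaged 47.9% ± 41.9 with a median of 50%, with all 8 bins in contact in 27 cells and none in 40. On the long arm, chr12:127500001-128200000 averaged 51.2% ± 36.9 (all bins in 26 cells, none in 22). Its neighbour chr12:129700001-130400000 averaged 53.6% ± 38.1 (all bins in 26 cells, none in 25). The fourth, chr12:13900001-14300000 on the short arm, averaged 47.2% ± 40.1 (all bins in 28 cells, none in 38).

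These 4 stretches differed in how they fell over the numbered sets of cells. Cells 96 to 124 averaged 76.5% at chr12:127500001-128200000 and 77.6% at chr12:129700001-130400000, against 43.3% and 46.2% in cells 1 to 94. Of the short arm stretches, chr12:13900001-14300000 averaged 58.9% over cells 96 to 124, against 43.6% over cells 1 to 94, whereas at chr12:16600001-17400000 the order was turned, at 34.8% and 51.9%. Over all 118 cells, with the contact share outside chromosome 12 removed, both distal long arm stretches correlated at r = 0.687, while chr12:16600001-17400000 correlated with them at r = -0.196 and r = -0.226. The other short arm stretch correlated with them at r = 0.0444 and r = -0.0332. These values between the arms are weak, over cells of 1 sample, and the part of the numbered sets in them was not tested.

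**Figure D3:**
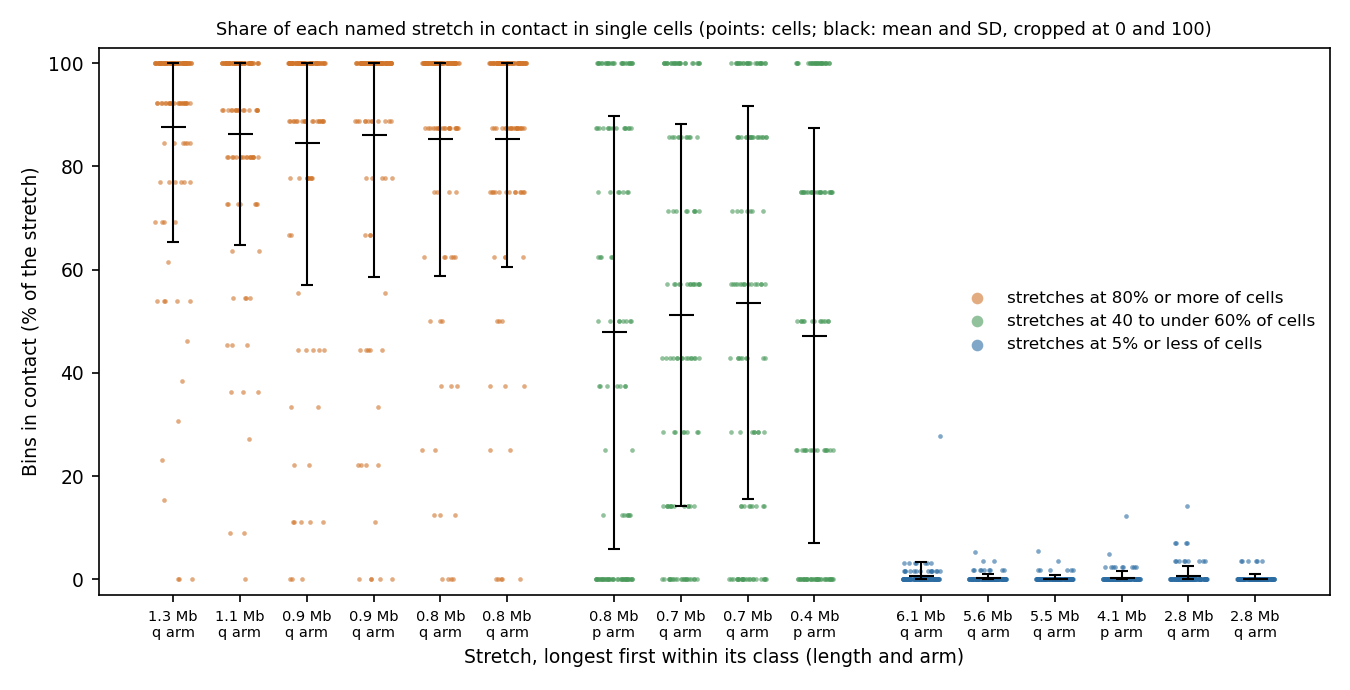
Each point is the percentage of the bins of a stretch in contact in 1 of 118 cells, for the 6 longest stretches at 80% or more (orange), the 4 longest at 40 to under 60% (green) and the 6 longest at 5% or less of cells (blue), with the stretch length and arm on the horizontal axis; black bars are the mean and SD, limited to the range from 0 to 100%. Points of the frequent stretches gather at 100%, those of the rare ones at 0%, and those of the intermediate ones spread over the whole range, with 22 to 40 cells at 0% and 26 to 28 cells at 100%.

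Contact changed abruptly at some places. Adjacent bins differed in frequency by a median of 2.54 points over 1308 pairs, by over 30 points at 41 borders and by over 50 points at 8. The steepest border, at 70600000, separated a bin at 73.7% from the next at 14.4%: 70 cells had contact only before it and 0 only after it. At 77500000, where the longest frequent stretch begins, the bin after the border was at 84.7% and the bin before it at 28.8%, with 67 cells in contact only after it and 1 only before it. On the short arm the steepest border was at 15700000, where a bin at 61.9% was followed by one at 6.78%. Over the 8 steepest borders, at most 2 cells had contact on the rarely contacted side only.

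Both chromosome ends were nearly free of contact, and the bins beside the gap were not. In the outermost 2 Mb of both arms together, 6 contacts were counted over 40 bins and 118 cells, a share of 0.127% ± 0.552, and 112 cells had none. With a ratio of 0.5 counted as contact this share was 1.42%. The share was 16.8% ± 11.1 at 2 to 10 Mb from the ends and 33.3% ± 9.55 farther inside. The 2 to 10 Mb zone differed between the arms, at 30.8% ± 19.6 on the long arm and 2.68% ± 5.06 on the short arm. On the long arm it was at 47.2% for cells 96 to 124 and 25.8% for cells 1 to 94, and on the short arm at 6.25% and 1.57%. The outermost bin was in contact in 2 of 118 cells on the long arm (1.69%, exact 95% binomial interval 0.206 to 5.99%) and in 1 on the short arm (0.847%, interval 0.0215 to 4.63%). Of these outermost bins, 115 cells had no read in the one on the long arm and 117 in the one on the short arm.

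Within 2 Mb of the gap 42.1% ± 23.1 of bins were in contact, from 0% through a median of 45.0% to 87.5%, against 28.9% ± 13.1 at 2 to 10 Mb and 30.0% ± 8.56 beyond. The long arm side averaged 35.6% ± 26.2 and the short arm side 48.6% ± 26.5, the reverse of the order of the arms as a whole. The bins directly at the gap were lower than this, at 19.5% on the long arm (23 cells, interval 12.8 to 27.8%) and 28.0% on the short arm (33 cells, interval 20.1 to 37.0%). In these bins, 95 cells had no read on the long arm and 84 had none on the short arm. Without the 10% of bins with the fewest expected reads, the share within 2 Mb of the gap was 53.7%. The part of low coverage in the values beside the gap was not tested.

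Contacts came in runs of adjacent bins. The mean run of a cell on chromosome 12 was 0.526 ± 0.168 Mb, with the shortest in cell 66 (0.195 Mb) and the longest in cell 27 (1.04 Mb), and a cell had 77.6 ± 19.0 runs. Bridging gaps of 1 bin gave a mean run of 0.907 Mb, and a ratio of 2 as the limit gave 0.293 Mb. With reads thinned to 50000 per cell the mean run was 0.394 Mb (109 cells). Without cells under 3 reads at a ratio of 1 the mean run was 0.559 Mb (104 cells). Of the contact bins, 58.2% lay in runs of 1 Mb or more and 7.64% were single. The mean run was 0.568 ± 0.200 Mb on the long arm (n = 118) and 0.401 ± 0.164 Mb on the short arm (n = 115 cells with contact). Chromosome 10 had a mean run of 0.473 ± 0.131 Mb with 52.0% of contact bins in runs of 1 Mb or more, and chromosome 11 a mean run of 0.527 ± 0.146 Mb with 53.1%. The run lengths of chromosome 12 and chromosome 11 differed by far less than the spread between cells, although chromosome 11 had the higher contact share.

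The longest run of all cells spanned 8.7 Mb, at chr12:80600001-89300000 in cell 9, followed by 8.6 Mb in cell 16 and 8.2 Mb in cell 22, all in the block from 70 to 93 Mb. The longest run of a cell had a median of 3.5 Mb, reached 3 Mb in 74 cells and reached 5 Mb in 27. It lay on the long arm in 108 cells and on the short arm in 10. Its midpoint fell between 70 and 93 Mb in 76 cells, and in 51 of these between 80 and 90 Mb.

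**Figure D4:**
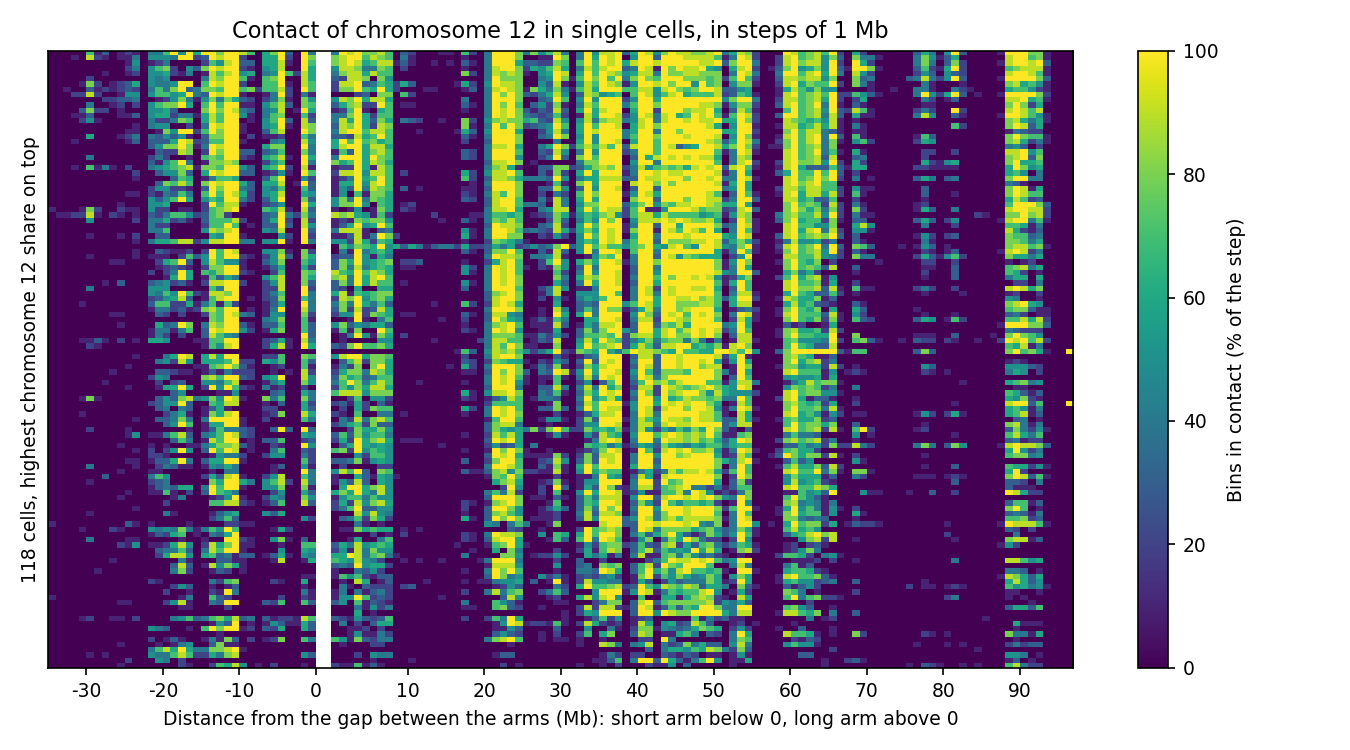
Each row is 1 of 118 cells, ordered by chromosome 12 contact share with the highest on top. Each column is a step of 1 Mb at its distance from the gap between the arms in Mb. The first step on the left and the last step on the right are not full. Colour gives the percentage of bins in contact from 0 (dark) to 100 (yellow), and the white column is the gap. The block between 70 and 93 Mb, at 32.2 to 55.2 Mb beyond the gap, is bright in most rows, while the short arm and the distal long arm are dark in many rows.

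The ratio in contact followed the frequency. Over bins with at least 5 contacts, the median ratio of a bin where it was in contact was 2.55 for bins at 80% or more, 2.02 at 20 to under 80%, 1.48 above 5% and under 20%, and 1.30 at 5% or less. The same classes of the rest of the genome gave 2.50, 1.99, 1.46 and 1.38. At 5% or less, only 25 of 541 bins of chromosome 12 and 339 of 9711 bins elsewhere had enough contacts to enter. Within a cell, the median ratio in contact at bins at 80% or more exceeded that at bins at 20 to under 80% by 0.493 ± 0.506, and it did so in 99 of 118 cells. The same values set both the frequency class and the ratio, so this is a description.

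Bins in intermediate contact moved together with their neighbours over cells. Among the 412 bins at 20 to under 80%, with the contact share outside chromosome 12 removed, adjacent bins correlated at a mean r of 0.514 ± 0.120 (SD over 312 pairs, 118 cells). The mean was 0.359 at distances over 0.5 up to 1 Mb, 0.215 over 2 up to 5 Mb, 0.117 over 10 up to 20 Mb and 0.0466 over 50 Mb. Pairs on different arms averaged 0.0560. Adjacent bins gave a mean r of 0.516 over cells 96 to 124 alone and 0.505 over cells 1 to 94 alone. The value was 0.479 on chromosome 10 and 0.409 on chromosome 11. The pairs share the cells and the reads of each cell, and neighbouring pairs share bins.

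**Figure D5:**
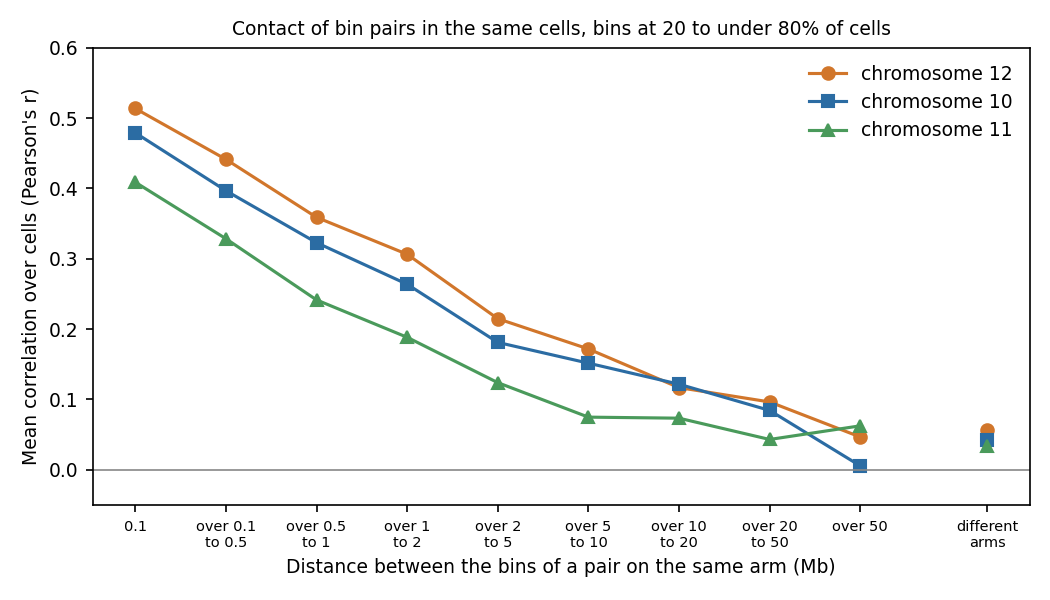
The horizontal axis gives classes of distance in Mb between 2 bins of the same arm, with pairs on different arms at the right, and the vertical axis gives the mean Pearson's r of their contact over 118 cells, for bins at 20 to under 80% of cells; orange circles are chromosome 12, blue squares chromosome 10 and green triangles chromosome 11. On chromosome 12 the mean r is 0.514 for adjacent bins and 0.0466 over 50 Mb.

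At the scale of 10 Mb the same decline was seen among the 14 windows with a mean share of 5% or more. Neighbouring windows correlated at a median r of 0.574, from 0.442 to 0.762, in 12 pairs. Windows of the same arm that were not neighbours had a median of 0.254, with 40 of 46 pairs above 0. Windows on different arms had a median of 0.139, from -0.0957 to 0.536, with 27 of 33 pairs above 0. Their highest values joined the short arm window at 30 to 34.9 Mb to the long arm at 40 to 50 Mb (0.536) and next to the gap (0.520). The highest value of all pairs, 0.762, was between the last 2 windows of the long arm. The windows at 20 to 30 Mb and 30 to 34.9 Mb of the short arm reached 0.728. Not all values fell with distance: the windows at 70 to 80 Mb and 90 to 100 Mb, which are not neighbours, correlated at 0.673. The lowest value, -0.129, was between 80 to 90 Mb and the last window.

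The numbered sets of cells differed most in windows of the distal long arm and least at 80 to 90 Mb. All 15 windows had a higher mean in cells 96 to 124, but at 80 to 90 Mb the difference was only 0.00397 points, with 69.4% ± 10.7 for cells 96 to 124, against 69.4% ± 18.6 for cells 1 to 94. The widest differences were 14.8 points at 100 to 110 Mb and 14.4 points at 120 to 130 Mb. From 100 Mb to the end of the long arm, cells 96 to 124 had a share of 25.9% ± 9.56, against 13.6% ± 8.58 for cells 1 to 94. At 126 to 130 Mb, cells 96 to 124 averaged 77.1% ± 23.3, against 44.8% ± 30.4 for cells 1 to 94. The rest of the genome was at 36.6% ± 3.42 in the 28 cells numbered 96 to 124 and 32.1% ± 5.52 in the 90 cells numbered 1 to 94. The sets also differed in reads, as given above, and no label says what the numbers stand for, so depth and other differences between the sets cannot be told apart. The bin frequencies of both sets correlated at r = 0.935 over 1310 bins, which are not independent.

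Single cells resembled the average map to different degrees. The contact calls of a cell over the 1310 bins correlated with the contact frequency in the other cells at 0.723 ± 0.127, from 0.262 in cell 66 through a median of 0.770 to 0.885 in cell 11. Cell 66, at the low end, was also the cell with the lowest chromosome 12 share and held 46574 reads, with 22.6% of the rest of the genome in contact.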

How the data were processed

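Single-cell DamID of LaminB1 in KBM7 clone 14 was analysed from 1 deposited table of ratios. Per the submitters' processing notes, cutadapt, Bowtie2 2.1.0 and hg19 were used. Nothing in the labels or the file header says how the expected part was made. The deposited ratio of observed over expected reads per 100 kb bin and cell was kept as the authors gave it. Columns were matched to 118 of 124 samples by number. Usable bins had numbers for all cells, 1 or more of them above 0. Contact was a ratio of 1 or more.

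Ratios were whole multiples of a step per bin and cell, which recovered the reads: of 1697706 values above 0, 100% were whole within a tolerance of 0.02. These reads served only to give depth and for thinning. Scripts were tested on simulated data (Python 3.11.15, numpy 2.4.6, pandas 2.3.3).

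The named regions were the 6 longest stretches at 80% or more and at 5% or less of cells, the 4 longest at 40 to under 60%, the outermost, gap-side and most frequent bin of each arm, every 10 Mb window and the longest run. Zones, borders, spans without contact and single cells were chosen after their values were seen. The members and lists were chosen with earlier results of these data known. Alternatives were other contact values and frequency limits, thinning to 50000 reads, the numbered sets apart, minimum depth, other distances and bridged runs. Gene positions and sequences were left out, since no annotation or genome of hg19 was at hand.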

Additional observations from a re-analysis of the deposited data

How the results depend on the processing

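Of 104 values of 12 results under 14 alternative settings, 92 stayed within the limit set for their kind, 12 moved further and 0 changed sign. The limit was 1 SD between cells for shares and runs, 1.5 times for counts, the 95% interval from 0.168 to 0.489 for the correlation of both arms, and 1 SD over bin pairs for neighbouring bins. With a contact value of 2, the chromosome 12 share was 17.5%, the long arm share 19.7%, the short arm share 11.3%, chromosome 12 minus the rest of the genome -1.44 points, the count of bins at 80% or more 0 and the mean run 0.293 Mb. With a contact value of 0.5 that count was 306 and the share within 2 Mb of the ends 1.42%. A limit of 90% left 8 bins in place of 175. Thinning to 50000 reads kept 109 cells and left out 9, with a share near the ends of 0.734% and a correlation of neighbouring bins of 0.377. Taking 5 Mb as the distance gave 7.22% near the ends. Cells 96 to 124 alone, with bins chosen in these cells, gave a correlation of both arms of 0.521. Bridging gaps of 1 bin gave a mean run of 0.907 Mb. Where only the contact value or frequency limit changed, the direction of change in shares and counts was fixed in advance, but not its size. A longer mean run after bridging was also fixed in advance. The cause of the other changes was not tested. The SD between cells was wide beside some of the 12 results, so a value within it was not necessarily stable. The short arm share (21.4% ± 10.6) counted as within it at 11.3% with a contact value of 2. Chromosome 12 minus the rest of the genome (-2.89 ± 6.69 points) did so at -1.44 points. Of 136 values of the 17 named stretches under 8 settings, 127 stayed within 1 SD between cells and 9 moved further. This SD was wide for the frequent and intermediate stretches, so a value within it was not necessarily stable. For chr12:127500001-128200000 (51.2% ± 36.9), 22.4% with a contact value of 2 counted as within it. The 76.5% of cells 96 to 124 did so too. Contact calls in the shallowest cells rest on little more than 1 read per bin. No comparison between groups of cells was possible because all cells form 1 group. Differences between arms and between chromosomes were taken within each cell.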
